A study of Mus musculus with 2 samples.

Results

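The genes described here build, anchor and cut the matrix that loosens the cumulus cells around the oocyte before ovulation: the matrix genes Has2, Tnfaip6, Ptx3, Vcan and Sdc4, and the protease genes Adamts1, Adamts4 and Adamts9. The 8 genes were chosen by name among 21887 protein-coding genes of the mouse. Every peak whose nearest gene or host gene is one of them was taken, which gave 7 of the 2374 peaks in a list of sites bound by FOS. For genes without such a peak, the nearest peak on the chromosome was taken in its place. FOS is a subunit of AP-1, a transcription factor made of FOS and JUN proteins that binds DNA words such as TGAGTCA and TGACTCA. The AP-1 word was searched as TGANTCA with N as any base, so its counts also take in TGAATCA and TGATTCA. The library came from granulosa cells, the somatic cells that line the follicle, of wild-type females 25 days old. The animals had received PMSG, a gonadotropin that drives follicles to grow, followed by hCG, a hormone that binds the receptor for luteinizing hormone and so triggers ovulation. Cells were collected by puncturing follicles 3 h after hCG. An antibody to FOS was used for the immunoprecipitation. The labels do not say how many animals gave the cells. A further library of cells at the same time, whose label names no antibody, was not analysed here.

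After the ovulatory signal, granulosa and cumulus cells secrete hyaluronan, a long sugar chain, and bind it into a mesh that swells and separates the cumulus cells. Proteins that carry or bridge hyaluronan hold the mesh together, and the proteoglycan versican is part of it. Proteases of the ADAMTS family, secreted metalloproteases with thrombospondin repeats, cut versican and related proteoglycans as the matrix is remodelled.

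A FOS peak was assigned to 5 of the 8 genes, namely Has2, Tnfaip6, Ptx3, Sdc4 and Adamts1 (62.5%, exact 95% interval 24.5 to 91.5). By the same rule 8.69% of all protein-coding genes had a peak, and 4.45% of all annotated genes. The 5 matrix genes had peaks at 4 and the 3 protease genes at 1, but with any peak within 50 kb counted the numbers were 3 of 5 and 2 of 3. Tnfaip6 had 3 peaks and the other 4 genes had 1 each. Vcan, Adamts4 and Adamts9 had none by this rule, although a peak lay inside the span of Adamts9. The genes were chosen with results of these data known, and the file is a peak list of 1 library without counts of reads, so depth is unknown and nothing was tested. The intervals cover counting error only.

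**Figure D1:**
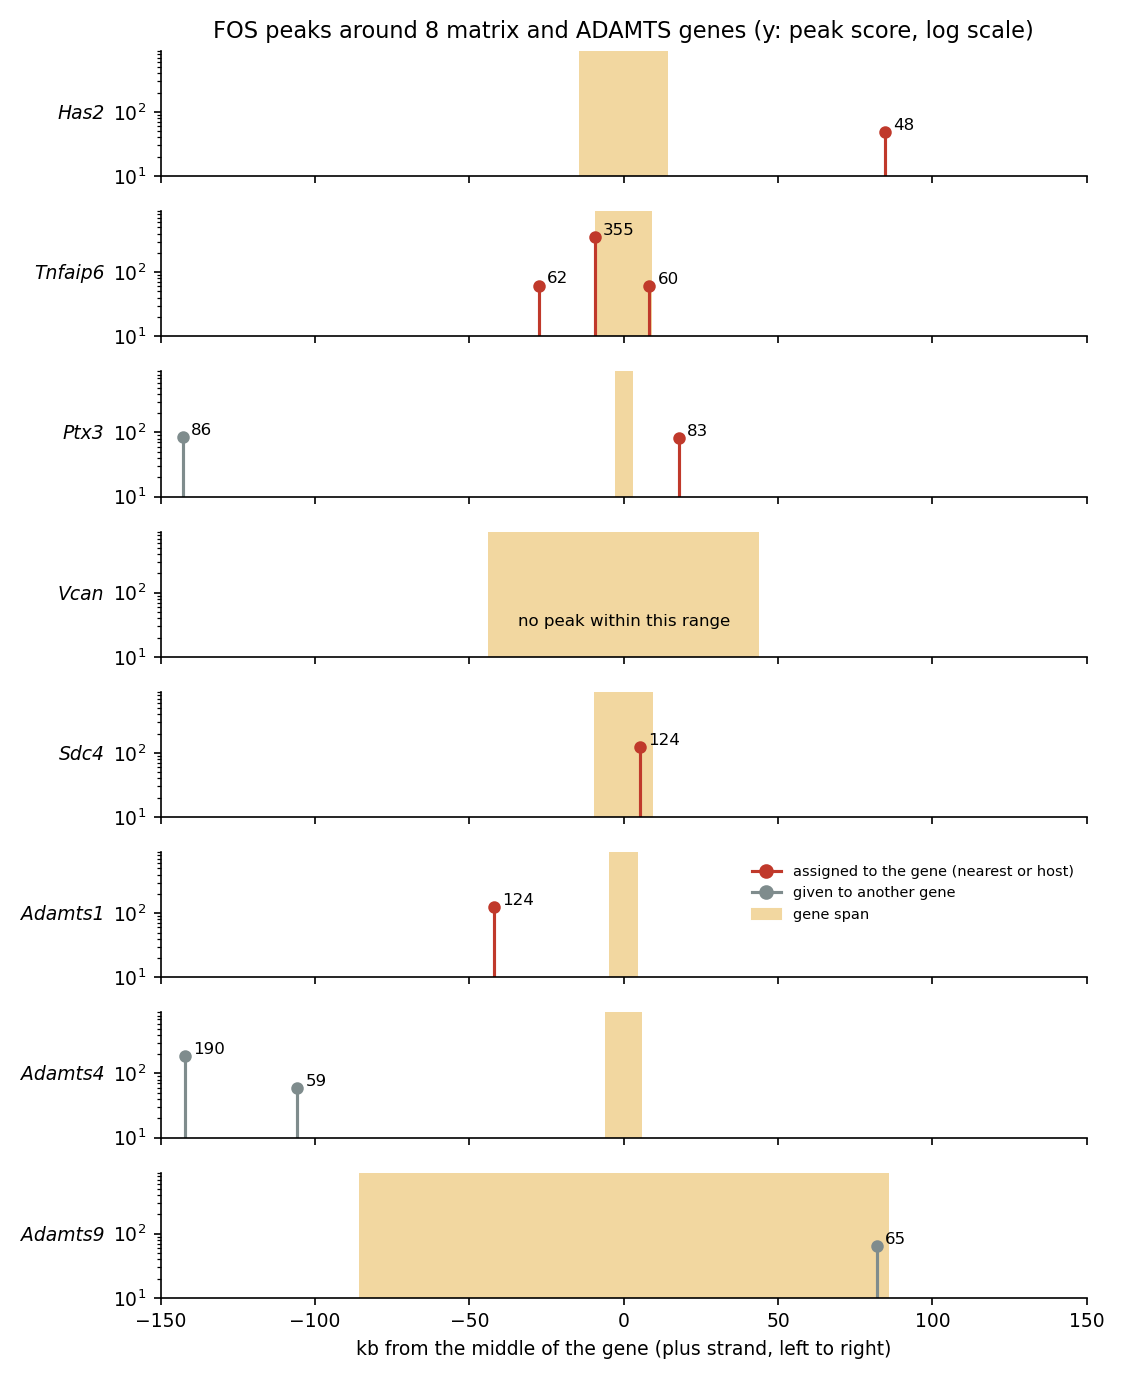
FOS peaks within 150 kb of the middle of each of the 8 genes. The x axis gives kb from the gene's middle along the plus strand, the y axis the authors' peak score on a log scale, and shading the gene span. Tnfaip6 had scores of 62, 355 and 60, Has2 had 48, Ptx3 83, and Sdc4 and Adamts1 124 each. Grey peaks were given to other genes, among them the peak of score 65 inside Adamts9, and no peak lay in this range around Vcan.

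The strongest site was the promoter of Tnfaip6, which encodes TSG-6, the hyaluronan-binding protein that moves heavy chains from inter-alpha-trypsin inhibitor onto hyaluronan. The peak at chr2:52037794-52038225 (mm10) scored 355, where the score is the authors' whole-number measure that ranks peaks within this list. It ranked 16 among 2374 peaks and 3 among the 360 peaks of the authors' promoter class, which named 1.55% of protein-coding genes. It began 319 bases before the transcription start site (TSS) and took in 113 bases from the TSS on. Its width of 432 bp was above that of 80.4% of peaks. The promoter window of the gene, which runs from 250 bases before the TSS to 49 after it, lay wholly inside the peak. It is shown here because it holds the AP-1 word TGAGTCA, in capitals. The RefSeq sequence (GRCm38.p6, the assembly that mm10 names) is chr2:52037863-52038162, plus strand, 5′ to 3′.
Tnfaip6: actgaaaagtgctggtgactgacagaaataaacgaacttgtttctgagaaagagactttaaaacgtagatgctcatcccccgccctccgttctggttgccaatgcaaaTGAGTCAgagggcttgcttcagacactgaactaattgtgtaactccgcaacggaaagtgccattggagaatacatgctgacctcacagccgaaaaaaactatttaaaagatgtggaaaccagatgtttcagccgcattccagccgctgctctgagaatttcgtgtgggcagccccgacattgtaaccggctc

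The AP-1 word began 142 bases before the TSS, and its middle base lay 35.5 bp from the centre of the peak. Of the 58 promoter windows of the genome that lay wholly inside a FOS peak, 27 held the word (46.6%, exact 95% interval 33.3 to 60.1), against 7.56% of the 32486 windows that no peak touched and 7.81% of all 32851 windows (some genes have several). Windows that a peak touched only in part are in neither of the first 2 groups. The 46.6% is therefore not the share over all windows that a peak touched. Of the 2565 windows with the word, 2457 were touched by no peak. The E-box word CACGTG was in 12 of the 58 windows inside a peak (20.7%, exact interval 11.2 to 33.4), against 7.04% of windows that no peak touched. In those 27 windows the middle of the nearest AP-1 word lay a median of 31 bp from the peak centre, with a range of 2.5 to 94 bp, so the distance at Tnfaip6 was close to the median. None of the other 6 words searched on both strands was in the Tnfaip6 window. These were TGACGTCA for the cyclic AMP response element, TTGCNNAA for C/EBP proteins, CAAGGTCA for the NR5A nuclear receptors, TGTGGT for RUNX proteins, CACGTG for the E-box bound by proteins such as USF, and TATAAA for the TATA box. Shares inside a peak and in windows that no peak touched were 3.45% and 1.72% for the cyclic AMP response element. The first rests on 2 of 58 windows (exact interval 0.42 to 11.9). In all, 588 windows held that word, 558 of them touched by no peak, and windows touched only in part are in neither share. The shares were 10.3% and 10.8% for C/EBP, 1.72% and 1.56% for NR5A, 12.1% and 16.8% for RUNX, and 13.8% and 13.7% for TATA. None of the 6 promoter windows found for the 8 genes held the E-box word, and its relation to FOS was not tested. A match describes the letters and is no proof of binding at that word.

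A pair of weaker peaks flanked the Tnfaip6 promoter. An intergenic peak of score 62 at chr2:52019663-52020018 lay 18.3 kb upstream, and a peak of score 60 at chr2:52055580-52055898 lay in intron 5 of 5, 783 bp before the end of the gene. The intronic peak was assigned to the next gene, Rif1, whose start was 17.1 kb away, and is counted here because Tnfaip6 is its host. From centre to centre the 3 peaks were 18.2 and 17.7 kb apart. Both flanking peaks scored below the median of the list, with 43.0% and 40.3% of peaks scoring lower, against 99.3% for the promoter peak. At least 3 peaks by nearest gene or host gene were found at 0.397% of protein-coding genes (87 genes), and 0.781% had at least 3 within 50 kb of the gene, as Tnfaip6 did.

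Has2, which encodes the enzyme that makes hyaluronan in expanding cumulus, had the weakest peak among the 8 genes. It scored 48, above 25.8% of all peaks, and lay 70.0 kb upstream of the TSS at chr15:56764456-56764723. It was 268 bp wide, the smallest width in the list, which 199 peaks (8.38%) shared. Has2 stands far from other protein-coding genes, 758 kb from Sntb1 and 549 kb from Slc22a22. The next peak, of score 58, lay 314 kb from Has2 on the other side and was given to Has2os, a noncoding transcript inside the Has2 span. No peak lay within 50 kb of Has2.

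Ptx3 encodes pentraxin 3, which binds the heavy chains and helps to cross-link hyaluronan. Its peak, at chr3:66240522-66240822, scored 83, above 63.8% of all peaks, and lay 20.8 kb downstream of the TSS and 14.7 kb past the gene. Ptx3 lies wholly inside the span of Veph1, and the peak was in intron 4 of 13 of Veph1. A second peak inside Veph1, in intron 12 of 13, scored 86 and lay 140 kb from Ptx3 on the other side. It was given to Ccnl1. The Ptx3 promoter window held no AP-1 word, and 1 C/EBP word, which 10.8% of all windows also held.

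Sdc4 encodes syndecan 4, a heparan sulphate proteoglycan of the cell surface. Its peak at chr2:164438906-164439270 lay in intron 1 of 4, 4.1 kb downstream of the TSS, and scored 124, above 83.6% of all peaks. Apart from the Tnfaip6 promoter peak it was the only peak of the 8 genes within 10 kb of the TSS it was assigned to, a distance that 38.3% of all peaks kept. The next peak was 478 kb away, although the protein-coding neighbours Rbpjl and Sys1 were 8.8 and 13.7 kb from the gene.

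Vcan, which encodes versican, had no peak within 500 kb. The nearest, of score 53 at chr13:90513951-90514260, lay 771 kb from the gene and was given to Atp6ap1l. Of the protein-coding genes with a peak on their chromosome, 74.1% had one nearer than that. Hapln1, the neighbouring gene of a link protein that ties versican to hyaluronan, likewise had no peak, and the same peak was the nearest to it, at 902 kb. Among the 8 genes Vcan was the only one whose nearest peak was farther off than the median of 279 kb for protein-coding genes (quartiles 84.0 and 802 kb).

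**Figure D2:**
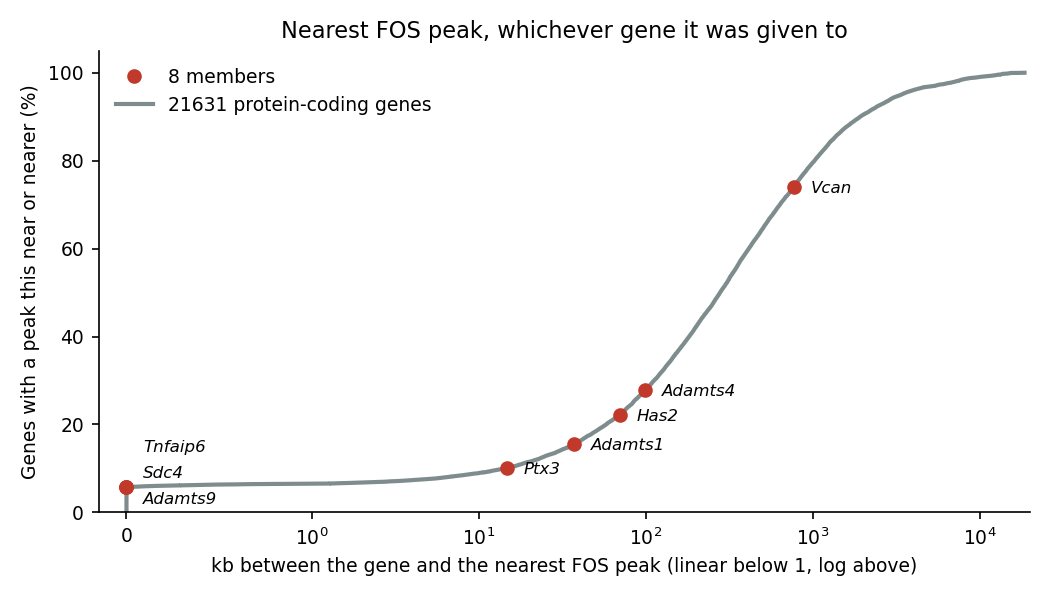
Distance from each gene to the nearest FOS peak, whichever gene the peak was given to. The x axis gives kb between gene span and peak, and the y axis the percent of 21631 protein-coding genes with a peak that near or nearer (grey line). Red points are the 8 genes: Tnfaip6, Sdc4 and Adamts9 overlap a peak, Ptx3, Adamts1, Has2 and Adamts4 lie between 14.7 and 99.4 kb, and Vcan lies at 771 kb.

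Adamts1 encodes the protease best known for cutting versican in the ovulating follicle. Its peak, at chr16:85756161-85756511, was intergenic, scored 124 and lay 46.8 kb downstream of the TSS. That score equals the one in Sdc4 and was above 84.4% of the 840 intergenic peaks. The peak was in the stretch between Adamts1 and Cyyr1, which are 243 kb apart. The gene on the other side, Adamts5, encodes a related protease that also cuts versican and lies 55.0 kb from Adamts1. Adamts5 had no peak by the rule, and its nearest was the same peak, 102 kb away. The next peak after it was 1504 kb from Adamts1. The Adamts1 promoter window held 1 TATA word, as did 13.6% of all windows, and no AP-1 word.

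Adamts9 encodes a large protease that also cuts versican and aggrecan. The peak inside its span, at chr6:92940290-92940676, scored 65, above 46.7% of all peaks. It lay 3051 bp downstream of the TSS used here, at chr6:92943534. The span of this minus-strand gene reaches farther upstream, to chr6:92944450. The authors' table gives the peak to the promoter of 9530026P05Rik, a long noncoding RNA gene. That gene starts on the opposite strand inside Adamts9, 2952 bp from the same Adamts9 TSS, and runs past it. A peak overlapped the span of 5.7% of protein-coding genes, a share not matched for gene length. Adamts9 spans 172 kb, the longest of the 8 genes. The next peak was 1283 kb from Adamts9. The promoter window of the noncoding gene lay wholly inside the peak and is shown because it also holds an AP-1 word, TGACTCA, in capitals. It is the word of the Tnfaip6 promoter read on the other strand. The RefSeq sequence (GRCm38.p6) is chr6:92940332-92940631, plus strand, 5′ to 3′.
9530026P05Rik: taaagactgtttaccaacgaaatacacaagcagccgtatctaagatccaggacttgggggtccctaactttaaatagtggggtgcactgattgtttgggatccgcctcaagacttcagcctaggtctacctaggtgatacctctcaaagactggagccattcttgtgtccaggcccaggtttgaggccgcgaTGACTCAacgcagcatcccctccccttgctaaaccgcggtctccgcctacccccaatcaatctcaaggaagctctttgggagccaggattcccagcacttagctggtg

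The word began 58 bases before the start site of 9530026P05Rik, and its middle base was 44 bp from the peak centre. The window also held 1 C/EBP word. The promoter window at the Adamts9 TSS used here held no AP-1 word, and no peak touched it. The AP-1 word was in 1 of the 6 promoter windows found for the 8 genes, that of Tnfaip6, which was also the only one of the 6 that a peak touched. Windows for Has2 and Adamts4 were not analysed here.

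**Figure D3:**
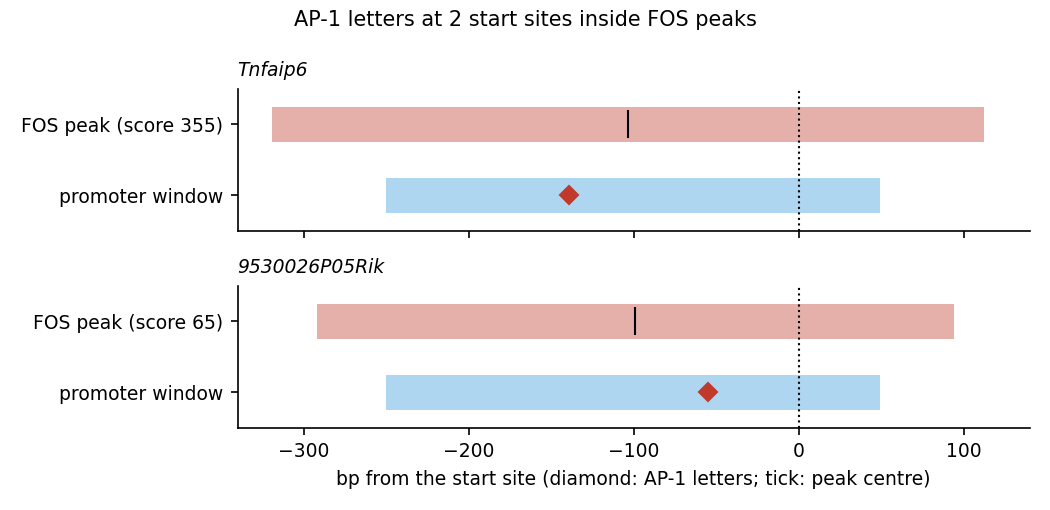
The start sites of Tnfaip6 and 9530026P05Rik, each inside a FOS peak. The x axis gives bp from the start site in the direction of transcription, the upper bar is the peak with a tick at its centre, the lower bar the 300-base promoter window, and the diamond the AP-1 word. The word lay 35.5 bp from the peak centre at Tnfaip6 and 44 bp at 9530026P05Rik.

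Adamts4, whose protease is also known as aggrecanase 1, had no peak in its span or within 50 kb. The nearest scored 59, lay 99.4 kb away and was given to Sdhc. A stronger peak, of score 190, lay 136 kb from Adamts4 and was given to Cfap126. Adamts4 has close protein-coding neighbours, Fcer1g at 15.8 kb and B4galt3 at 8.06 kb.

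The 7 peaks were spread over the score range of the list. Their median was 83, with a lowest score of 48 and a highest of 355, and the 2374 peaks of the list had a median of 67, quartiles of 46 and 99, and a range of 13 to 2234. Of the 7, 4 were at or above the median of the list and 3 scored 99 or more, its upper quartile. By class 3 were intergenic, 3 were in introns and 1 was a promoter peak, against 35.4% intergenic, 44.7% intronic and 15.2% promoter among all peaks. Their median width of 351 bp was near the 342 bp of the list.

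**Figure D4:**
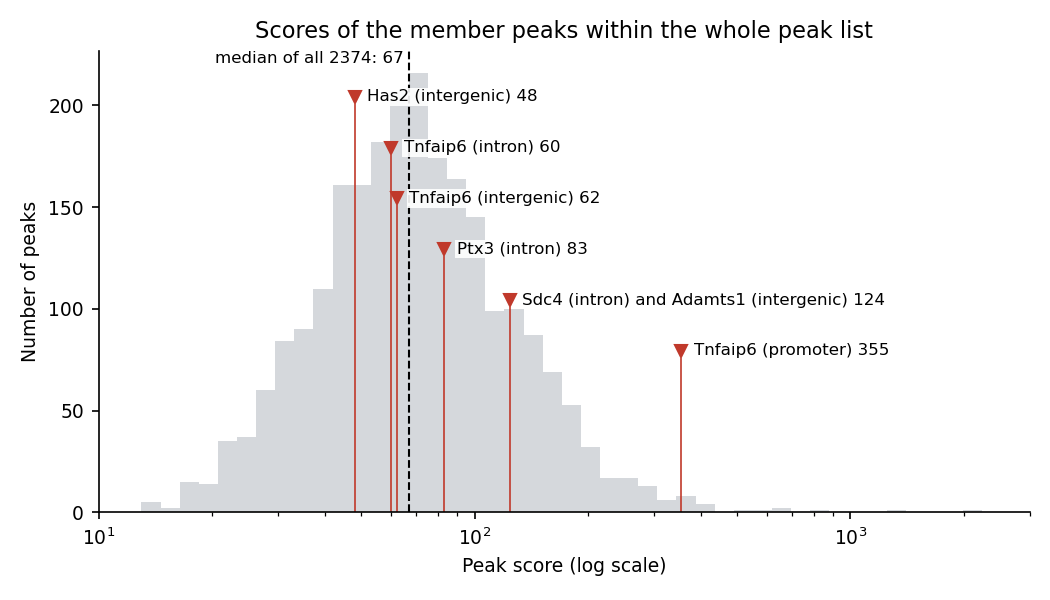
Scores of the 7 peaks (red markers, with gene and class) within the distribution of all 2374 peaks (grey bars). The x axis is the authors' peak score on a log scale and the y axis the number of peaks. The Tnfaip6 promoter peak at 355 stands in the upper tail, and the peaks of Has2 and the 2 flanking peaks of Tnfaip6 lie under the median of 67.

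Peaks were also counted at other genes of the hyaluronan matrix and of the ADAMTS system. Of 71 such genes in 6 role classes, 8 had a peak by nearest gene or host gene (11.3%, exact 95% interval 4.99 to 21.0), which is near the 8.69% of all protein-coding genes. Of the 16 other ADAMTS proteases, 2 had a peak. For Adamts6 it was intergenic, scored 107 and was 229.3 kb beyond the TSS, and for Adamts7 it scored 24 and was inside Tbc1d2b. With Adamts1, Adamts4 and Adamts9 included, 3 of 19 ADAMTS genes had a peak (15.8%, exact interval 3.38 to 39.6).

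The highest score in these classes belonged to Furin, the proprotein convertase that removes the propeptide of ADAMTS enzymes. Its intergenic peak scored 179 and lay 33.0 kb upstream. Pcsk5, a related convertase, held a peak in intron 5 of 37 that scored 49. No TIMP gene, which encode inhibitors of metalloproteases, was among the 2 of 15 genes with a peak in that class.

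Among the 12 genes that make hyaluronan or supply its cross-linking proteins, Itih1 and Itih5 had a peak. Itih1 encodes a heavy chain of inter-alpha-trypsin inhibitor, the kind of chain that TSG-6 transfers, and its peak of score 53 lay 1.1 kb upstream. Itih5, a related gene, held one in intron 5 of 13 that scored 51. Of 12 hyalectans, syndecans and glypicans, Sdc1 had intergenic peaks of score 66 and 55, and Sdc2 had peaks of score 38 and 33 that lay over 312 kb upstream, inside Sema5a. None of the 11 genes for hyaluronan receptors and degradation had a peak, Cd44 among them, nor did the 5 other pentraxins. With 11 genes the exact interval reaches 28.5%, and with 5 it reaches 52.2%. In classes this small even a count of 0 leaves an interval that takes in 8.69%, the share of all protein-coding genes. Nothing about either class is therefore read from these counts.

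**Figure D5:**
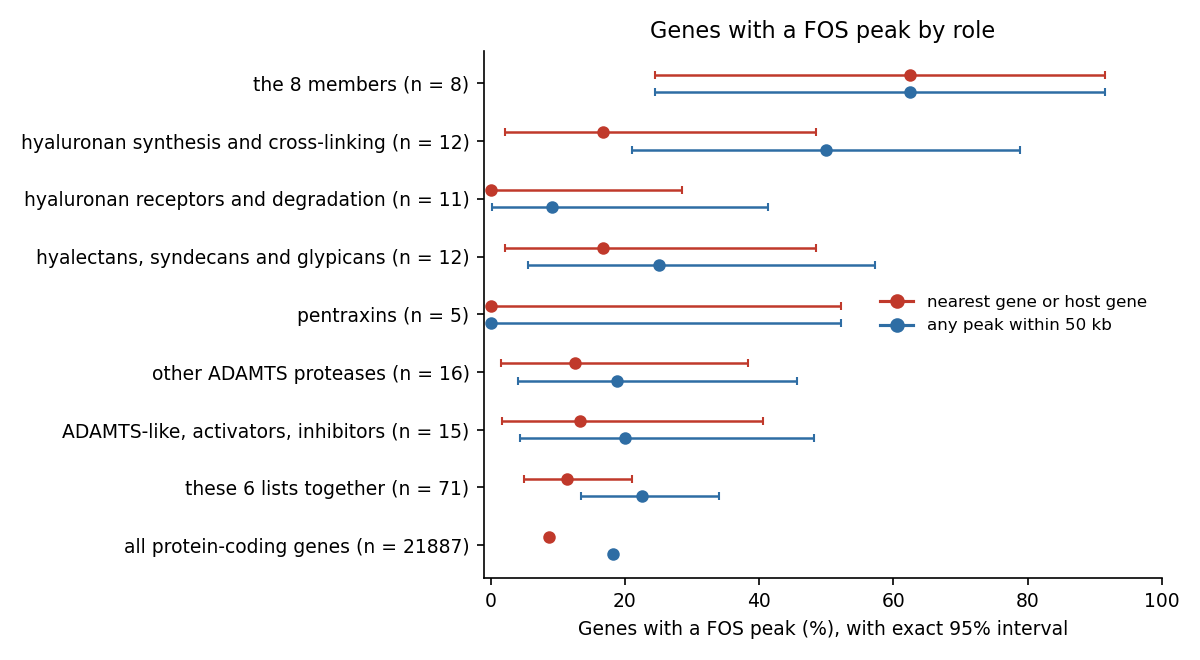
Percent of genes with a FOS peak in each role class, for peaks by nearest gene or host gene (red) and for any peak within 50 kb of the gene (blue), with exact 95% intervals. The 8 genes stand at 62.5% under both rules, the 6 classes together at 11.3% and 22.5%, and all protein-coding genes at 8.69% and 18.2%. The 2 rules do not give the same 5 genes: Has2 has a peak only by the first and Adamts9 only by the second. The 8 genes were chosen with results of these data known, so their interval is no test against the other rows.

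With nearest genes alone the same 5 of the 8 genes had a peak, against a background of 7.58%, and within 100 kb of the TSS again the same 5, against 7.89%. Counting only scores at or above 67 left 4 genes, with Has2 lost, against 4.75%. Counting only scores of 99 or more left Tnfaip6, Sdc4 and Adamts1, against 2.55%, and within 10 kb of the TSS Tnfaip6 and Sdc4 were left, against 3.85%. When any peak within 50 kb of the gene span was counted, whichever gene it was given to, 5 of the 8 genes again had one, but not the same 5: Adamts9 entered and Has2 left. The background under that rule was 18.2%, and 16 of the 71 other genes had a peak (22.5%). These 16 genes had 13 distinct nearest peaks, since Itih1, Itih3 and Itih4 share one and Hapln2 and Bcan share another. Has1, a second hyaluronan synthase, was among the genes gained. It is named here after its value was seen. A peak of score 112 at chr17:17837784-17838123 lay wholly inside the Has1 span and was assigned to Spaca6, a gene that overlaps it.

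A peak list holds no expression, so the cell type could not be checked, and peaks at marker genes were only counted. Of 8 granulosa genes 4 had a peak (Cyp19a1, Nr5a2, Esr2 and Lhcgr), as did 1 of 4 theca genes (Cyp17a1), 1 of 4 endothelial genes (Cdh5) and none of 4 oocyte or 4 leukocyte genes, against 8.69% of all protein-coding genes. No peak was assigned to the granulosa genes Foxl2, Fshr, Amh and Inha. The theca genes Insl3, Gli1 and Ptch1 and the endothelial genes Pecam1, Tie1 and Kdr had none either. A peak near a marker does not measure how many cells of that type were present, and their part in these results was not tested.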

How the data were processed

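The deposited file holds narrow peaks of 1 FOS ChIP-seq library, annotated with HOMER's annotatePeaks program, per the file headers. The submitters' processing notes name the mm10 build, deepTools 3.5.1, MACS2 2.2.7.1, BWA and Trim Galore. How peaks were thresholded, and against which control, is not given in the sources used here. Peak score is the authors' value, of unstated scale, used only to rank peaks within the list. The other deposited values used were coordinates, the signed distance from peak centre to nearest TSS, the nearest gene with its identifier, and the annotation. The annotation gives the class, the host gene and the intron or exon number.

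Genes were matched to RefSeq GRCm38.p6 by accession, symbol or older symbol. All 2374 nearest genes and 1531 of 1534 host genes matched. Distances to genes run from the gene span. Of the protein-coding genes, 256 have no peak on their chromosome and are left out of distance shares. Promoter windows (RefSeq, GRCm38.p6) were found for 6 of 8 members. Peak sequences elsewhere were not analysed here.

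The members and lists were chosen with earlier results of these data known, and no test was made. All members are named, as are the listed genes with a peak and the genes given peaks near a member. Assignment, distances and the word search were checked on simulated data. Intervals are Clopper-Pearson, 95%. Python 3.11.15, numpy 2.4.6, pandas 2.3.3, scipy 1.17.1 and matplotlib 3.10.9 were used.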

Additional observations from a re-analysis of the deposited data

How the results depend on the processing

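The 5 genes with a peak stayed 5 with nearest genes alone and within 100 kb of the TSS, and were 4 with scores of at least 67, the median. They were 3 with scores of 99 or more and 2 within 10 kb of the TSS. The 8 of 71 other genes became 16 within 50 kb of the gene, 2 with scores of at least 67, 2 with scores of 99 or more, 1 within 10 kb and 5 within 100 kb of the TSS. In that order the shares were 22.5%, 2.82%, 2.82%, 1.41% and 7.04%. Those of all protein-coding genes moved too, to 18.2%, 4.75%, 2.55%, 3.85% and 7.89%. Over all annotated genes the background was 4.45% in place of 8.69%. The median score of 83 was 124 over the best peak of each gene, 72.5 without the Tnfaip6 promoter peak and 103.5 with nearest genes alone. With scores of at least 67, the nearest peak was 2016 kb from Vcan, 1283 kb from Adamts9 and 136 kb from Adamts4, and peaks within 100 kb numbered 1 at Tnfaip6 in place of 3, and 0 at Has2, Adamts4 and Adamts9 in place of 1. With 1 mismatch allowed in the AP-1 word, 4 of the 6 promoter windows held it in place of 1, but so did 69.4% of all windows. Of 35 alternatives 20 moved the value by no more than 1.5 times. No paired analysis was possible because there is 1 library, and no replicate could be left out. The depth is unknown.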
